A study of Mus musculus with 8 samples.

Results

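The mature lining of the mouse colon expresses genes that a dividing crypt cell or a tumor cell uses little, and 10 of them are described here in colon tumors grown from transplanted organoids. The rule that picks them uses gene names and no measured value, but they were chosen with earlier results of these data known. They are Guca2a, Lypd8, Aqp8, Slc26a3, Car1, Car4, Clca4 and Clca6, which are taken as absorptive members, and Muc2 and Tff3, which are taken as goblet members. All 10 were found among 20275 gene symbols. They were followed in 512 Epcam-positive wells of 3072 wells in all.

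The tumors came from mouse colon organoids with engineered tumor mutations, Apc among the mutated genes, that had been transplanted under the muscle layer of the cecum. Recipients were FibCtrl mice (4 plates) or FibΔZeb1 mice (4 plates), whose fibroblasts were to lose the transcription factor gene Zeb1 after a tamoxifen diet, and each 384-well plate held cells of 1 mouse. Both groups received the tamoxifen diet and carried the same type of graft. FibΔZeb1 mice were Zeb1 fl/fl and Cre-positive, whereas FibCtrl mice lacked Cre. GEO's labels call the Cre transgene Col1a1Cre-ERT2 and the methods of the study name Col1a2-CreERT2, so the driver is left as a fibroblast collagen promoter. The methods describe Cre-negative controls as age-matched littermates, and ages are not given in the sources used here. The deletion acts in fibroblasts of the recipient, so neither the grafted tumor cells nor the colon epithelium of the recipient were its target. Each plate mixed epithelial cells from an EPCAM gate with immune (CD45) cells and with cells negative for both, and the EPCAM gate takes any epithelial cell, whether it comes from the graft or from the mucosa around it.

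An Epcam-positive well had at least 2000 transcripts, counted without spike-ins and mitochondrial genes, and at least 2 Epcam transcripts. Such wells numbered 89, 24, 50 and 55 on FibCtrl replicates 1 to 4 and 67, 81, 82 and 64 on FibΔZeb1 replicates 1 to 4. They held 687776 to 3883748 transcripts per plate, with the fewest on FibCtrl replicate 2. As a background, 342 immune wells (at least 2 Ptprc transcripts and no Epcam) were read in the same way. The targeted gene was low and uneven. Per 1000000 transcripts of the fibroblast-type wells (10 or more collagen transcripts, no Epcam), Zeb1 was at 110 and 84.5 on FibCtrl replicates 1 and 4, at 17.2 on FibCtrl replicate 3 (4 transcripts), and at 19.9 to 48.3 on the FibΔZeb1 plates. FibCtrl replicate 2 had 2 such wells and 0 Zeb1 transcripts. FibCtrl replicates 2 and 3 therefore did not stand above the FibΔZeb1 plates, and their genotype rests on the label.

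Colon epithelium is renewed from crypt stem cells that are kept dividing by Wnt signals, and cells that leave the crypt stop dividing and mature into absorptive colonocytes or into secretory cells such as goblet cells. Absorptive colonocytes move salt, bicarbonate and water. Guca2a encodes guanylin, a peptide that regulates salt and water secretion, Aqp8 a water channel, Slc26a3 the chloride-bicarbonate exchanger of the surface, and Car1 and Car4 carbonic anhydrases. Lypd8 encodes a surface protein shed into the lumen, where it keeps bacteria off the epithelium. Clca4 and Clca6 belong to a family of calcium-activated chloride channel regulators. Muc2 is the gel-forming mucin of goblet cells, and Tff3 encodes a trefoil peptide released with it.

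The starts of 4 of these genes are shown because 3 of them were found together in the same wells and the fourth, Muc2, marks the other lineage. The sequences are RefSeq promoters on GRCm38.p6, each from 250 bases before to 50 bases after a RefSeq start and written along the gene. For Slc26a3 this start lies inside the GENCODE span of the gene (chr12:31390871-31473917), so it is not the first start of the gene. Of the 10 members, 6 had a sequence in the RefSeq promoter table. Capitals mark matches on either strand to AGATAA (the GATA motif), GTTAAT (a part of the HNF1 motif), TTTATG (a CDX motif) or CAAAGTCCA (an HNF4 motif).
Lypd8, chr11:58378782-58379081, plus strand: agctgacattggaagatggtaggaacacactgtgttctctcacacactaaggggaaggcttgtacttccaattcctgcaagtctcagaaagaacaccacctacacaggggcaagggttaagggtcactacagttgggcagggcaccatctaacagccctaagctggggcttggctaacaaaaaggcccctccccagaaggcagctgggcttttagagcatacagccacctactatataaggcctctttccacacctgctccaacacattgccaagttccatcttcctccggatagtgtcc
Guca2a, chr4:119637482-119637781, plus strand: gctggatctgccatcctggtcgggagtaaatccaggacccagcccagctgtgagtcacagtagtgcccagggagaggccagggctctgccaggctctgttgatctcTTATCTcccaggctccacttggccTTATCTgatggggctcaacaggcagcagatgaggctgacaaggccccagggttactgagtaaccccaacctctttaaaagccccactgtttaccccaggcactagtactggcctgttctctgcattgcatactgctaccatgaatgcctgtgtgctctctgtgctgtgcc
Slc26a3, chr12:31437969-31438268, plus strand: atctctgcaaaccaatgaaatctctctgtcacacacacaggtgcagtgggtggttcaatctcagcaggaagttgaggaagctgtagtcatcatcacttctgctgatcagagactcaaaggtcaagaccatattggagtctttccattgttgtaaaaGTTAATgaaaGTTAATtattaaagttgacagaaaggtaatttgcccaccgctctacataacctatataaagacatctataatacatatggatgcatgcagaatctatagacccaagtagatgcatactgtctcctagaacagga
Muc2, chr7:141690090-141690389, plus strand: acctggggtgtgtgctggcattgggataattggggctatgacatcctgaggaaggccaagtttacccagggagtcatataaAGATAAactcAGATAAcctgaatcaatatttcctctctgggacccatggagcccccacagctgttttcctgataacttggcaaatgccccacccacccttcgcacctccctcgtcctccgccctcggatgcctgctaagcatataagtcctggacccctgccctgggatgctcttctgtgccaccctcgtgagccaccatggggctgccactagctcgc
The window of Lypd8 held none of the 4 motifs. The windows of Aqp8 and Car4, which also had a sequence, held none of them either and are not shown. A second RefSeq start of Lypd8 held 1 GATA and 1 HNF1 match. Guca2a held AGATAA at 144 and 120 bases before its start, both on the opposite strand, and Muc2 held it at 169 and 159 bases before its start. Slc26a3 held GTTAAT at 94 and 84 bases before its start. In all 32851 promoters of this length, AGATAA occurred in 11.2% (at least 2 matches in 1.15%), GTTAAT in 7.10% (at least 2 in 0.548%), TTTATG in 11.9% and CAAAGTCCA in 0.475%. A match is a description of the letters and not a binding site.

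The first question was how much of each member the epithelial wells of a mouse carried. Values are transcripts per 1000000 transcripts (TPM) in the summed Epcam-positive wells of a plate. The assay counts 3′ ends, so no length enters the scale. In such sums fewer cells of a type and less RNA per cell cannot be told apart. Most members were at or near 0 on some plates and far above on others, and the same plates were high for nearly all of them. FibΔZeb1 replicate 2 had the highest level of 7 members and FibCtrl replicate 2 of the other 3. FibCtrl replicate 4 and FibΔZeb1 replicates 1 and 3 had 4, 6 and 4 members at 0.

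**Figure D1:**
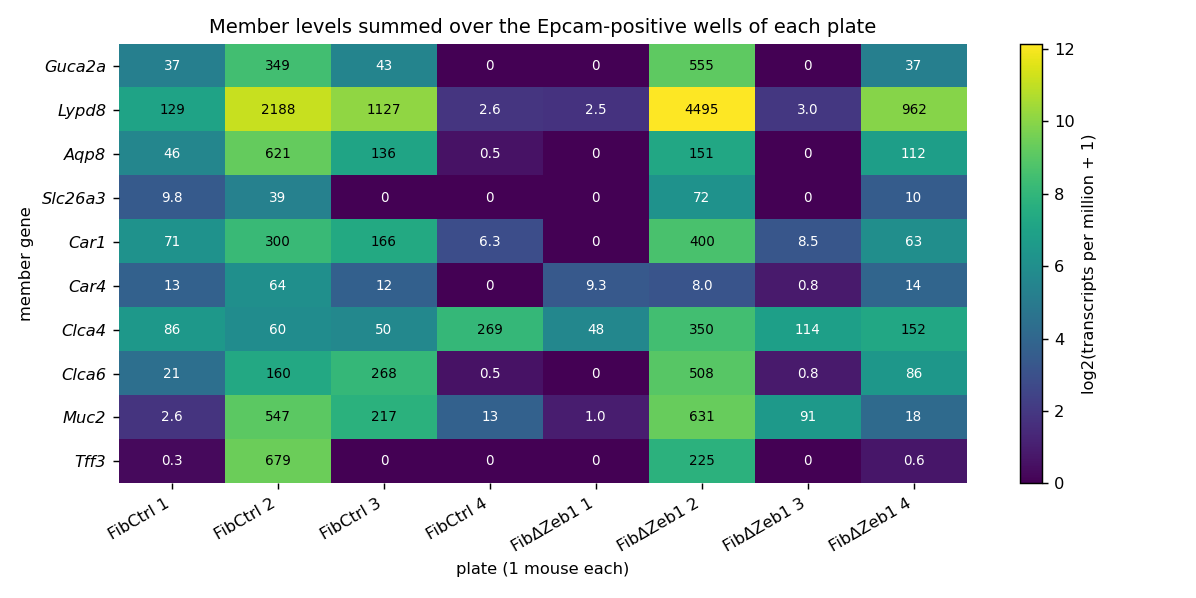
Level of each member (rows) in the summed Epcam-positive wells of each plate (columns), with color for log2(TPM + 1) and the TPM printed in each cell. FibCtrl 2 and FibΔZeb1 2 are high for nearly every member, FibCtrl 4 and FibΔZeb1 1 and 3 are under 10 for every member except Clca4 and, on FibCtrl 4 and FibΔZeb1 3, Muc2.

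Lypd8 was the most abundant member. Its level was 129, 2188, 1127 and 2.61 TPM on FibCtrl replicates 1 to 4 and 2.46, 4495, 2.97 and 962 on FibΔZeb1 replicates 1 to 4. The 3 low plates, 1 FibCtrl and 2 FibΔZeb1, held 5 to 7 Lypd8 transcripts each, and the groups overlapped over their whole range. Guca2a was at 37.3, 349, 43.5 and 0 on the FibCtrl plates and at 0, 555, 0 and 37.0 on the FibΔZeb1 plates, so it was 0 on the same 3 plates. On FibCtrl replicates 2 and 3, 1 well gave 69.6% and 92.8% of the Lypd8 and 77.9% and 100% of the Guca2a transcripts. On FibΔZeb1 replicate 2 the top well gave 21.6% and 22.8%. For Aqp8, Car1 and Clca6, 1 well gave 77.8% to 99.3% on FibCtrl replicates 2 and 3.

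The transport genes were less abundant than Lypd8. Aqp8 was at 46.3, 621, 136 and 0.523 on FibCtrl and at 0, 151, 0 and 112 on FibΔZeb1 plates, with its highest level on FibCtrl replicate 2. Slc26a3 was at 9.78, 39.3, 0 and 0 on FibCtrl and at 0, 72.3, 0 and 10.4 on FibΔZeb1 plates. It was therefore absent from the counts of 4 plates, 2 of each genotype.

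Of the carbonic anhydrases, Car1 was at 70.8, 299.5, 166 and 6.27 on FibCtrl and at 0, 400.4, 8.49 and 63.0 on FibΔZeb1 plates. Car4 was the least abundant member, at 12.6, 64.0, 12.2 and 0 on FibCtrl and at 9.34, 8.03, 0.849 and 14.3 on FibΔZeb1 plates. It did not share the high value of FibΔZeb1 replicate 2, where it had 15 transcripts. Clca6 was at 20.6, 159.9, 268 and 0.523 on FibCtrl and at 0, 508, 0.849 and 85.8 on FibΔZeb1 plates, with the same low plates as Lypd8.

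Clca4 stood apart. It was at 86.3, 59.6, 49.6 and 269 on FibCtrl and at 47.7, 350, 114 and 152 on FibΔZeb1 plates, so no plate was at 0 and FibCtrl replicate 4, near 0 for the other absorptive members, was the second highest. The symbol Clca4 is listed by RefSeq as a synonym of both Clca3b (chr3:144822623-144849357) and Clca4a (chr3:144952480-144975045), 2 neighbors on mouse chromosome 3, and Clca6 as a synonym of Clca4a only. Which gene the Clca4 rows count is thus uncertain, and reads can be split between such relatives.

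The goblet members were high on few plates. Muc2 was at 2.57, 547, 217 and 12.5 on FibCtrl and at 0.983, 631, 90.8 and 17.5 on FibΔZeb1 plates. Tff3 was at 0.257, 679, 0 and 0 on FibCtrl and at 0, 225, 0 and 0.650 on FibΔZeb1 plates, so it had more than 1 transcript only on replicate 2 of each genotype. On these plates 83.1% and 75.2% of the Tff3 transcripts came from 1 well. Muc2 was also concentrated, with 43.4% of its transcripts on FibCtrl replicate 3 and 79.4% on FibΔZeb1 replicate 3 in 1 well each, although Tff3 was at 0 on both plates.

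The second question was whether the members lay in the same wells, as they would in a mature cell, or were spread over the Epcam-positive wells. Each well was thinned to 2000 transcripts, so that deep and shallow wells had the same chance of showing a gene, and the absorptive members detected were counted. Of the 512 Epcam-positive wells, 326 showed none, 110 showed 1, 32 showed 2 and 44 showed 3 to 7. A well with at least 3 is called absorptive co-detecting below. The 8 wells just inside this threshold had a median of 11578 TPM over the absorptive members (4628 to 45866), and the 32 wells with 2 members had a median of 2579 (236 to 20654). Wells near the threshold therefore overlapped.

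Absorptive co-detecting wells were found on 5 plates. They were 7 of 89 Epcam-positive wells on FibCtrl replicate 1 (7.87%, 95% Wilson interval 3.86 to 15.4), 3 of 24 on replicate 2 (12.5%, 4.34 to 31.0) and 1 of 50 on replicate 3 (2.00%, 0.354 to 10.5). On FibΔZeb1 replicate 2 they were 29 of 81 (35.8%, 26.2 to 46.7) and on replicate 4 they were 4 of 64 (6.25%, 2.46 to 15.0). The other 3 plates had 0 of 55, 0 of 67 and 0 of 82, which by the limit of 3 counts allows shares of up to 5.45%, 4.48% and 3.66% (upper 95% Wilson bounds 6.53%, 5.42% and 4.48%). These 3 plates are those near 0 in the plate sums, and FibΔZeb1 replicate 2 alone gave 29 of the 44 wells. Intervals and limits cover counting error only. Of the immune wells, 4 of 53 on FibΔZeb1 replicate 2 and 0 on each other plate showed 3 or more members (median depth 3040 transcripts on that plate, against 11801 in its Epcam-positive wells).

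**Figure D2:**
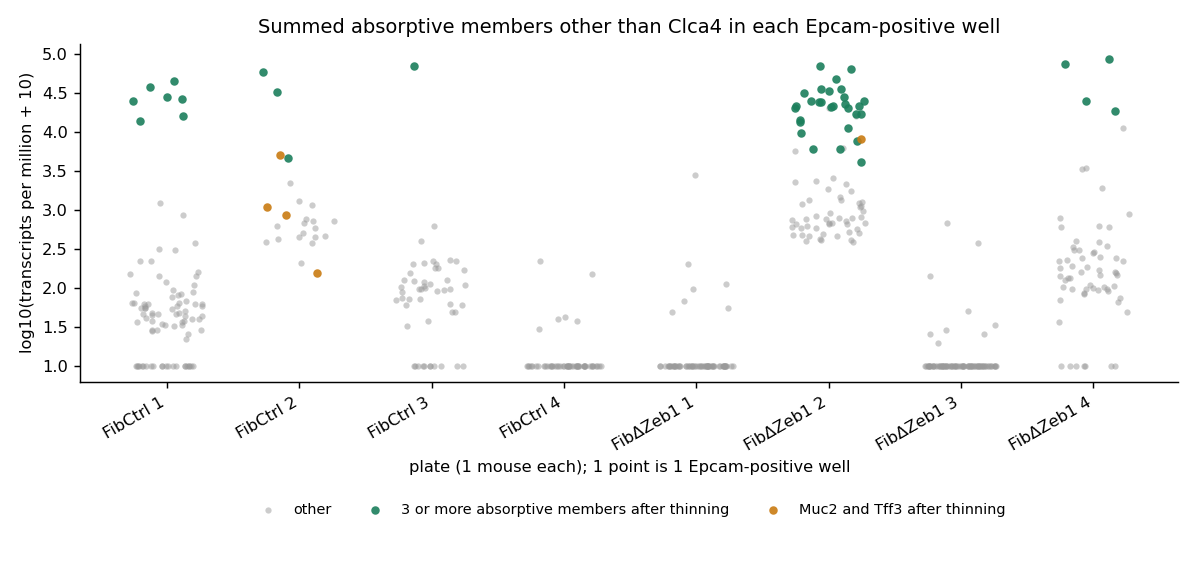
Each point is 1 Epcam-positive well, placed by plate (x axis) and by log10(TPM + 10) summed over the 7 absorptive members other than Clca4 (y axis). Green points are the 44 wells with 3 or more absorptive members after thinning and orange points the 5 further wells with Muc2 and Tff3. Green points lie high on 5 plates, and the gray points of FibΔZeb1 2 lie above most of those of the plates without green points.

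These wells carried most of the absorptive transcripts although they held 3.07% of the transcripts of all Epcam-positive wells. They had 93.7% of the Guca2a transcripts, 94.0% of Slc26a3, 92.5% of Clca6, 90.4% of Aqp8, 88.2% of Car1, 85.6% of Lypd8 and 72.5% of Car4. Clca4 was the exception, with 8.99% in these wells and 91.0% in the rest. The wells were chosen by these genes, so the shares describe the choice and are not tested.

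**Figure D3:**
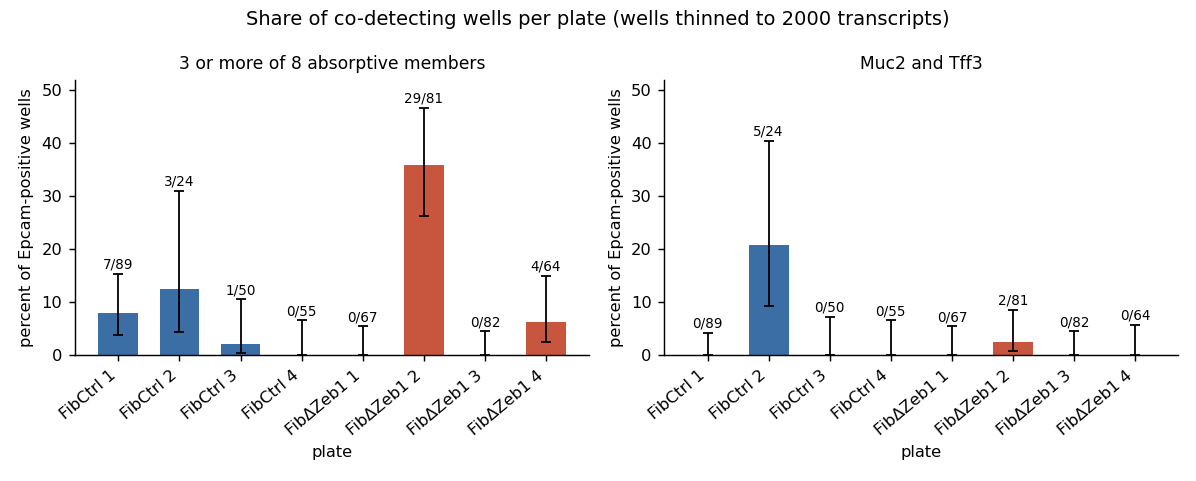
Percent of Epcam-positive wells (y axis) that showed 3 or more absorptive members (left) or both Muc2 and Tff3 (right) on each plate, after thinning to 2000 transcripts. Blue bars are FibCtrl and red bars FibΔZeb1 plates, error bars are 95% Wilson intervals and the counts are printed above them. FibΔZeb1 2 has 29 of 81 absorptive wells, and Muc2 with Tff3 occurred on replicate 2 of each genotype.

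Within the 44 wells the members were not equally common. Lypd8 was present in all 44, with a median of 15124 TPM and a range from 1454 to 72609. Guca2a was present in 41 (median 2107), Clca6 in 38 (median 1198), Aqp8 in 32 (median 843), Car1 in 29 (median 287), Slc26a3 in 27 (median 167), Car4 in 16 and Clca4 in 15. The wells also differed between plates. Pooled over its co-detecting wells, FibΔZeb1 replicate 2 had 751 Aqp8 TPM, against 4023, 8900 and 5556 on FibCtrl replicates 1 to 3 and 6299 on FibΔZeb1 replicate 4. Lypd8 ranged from 10972 on FibCtrl replicate 1 to 46907 on FibΔZeb1 replicate 4. These values rest on 1 to 29 wells per plate and are given without a test.

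Pairs of members showed the same division. Of the 46 thinned wells with Guca2a, 95.7% also had Lypd8, 56.5% had Clca6, 52.2% had Car1, 50.0% had Aqp8 and 39.1% had Slc26a3. In the wells without Guca2a these genes were found in 17.2%, 2.15%, 1.29%, 1.93% and 0.429%. Clca4 was found in 23.9% of wells with Guca2a and in 13.5% of those without. Across the 512 wells, the level of each member was also correlated with the number of other absorptive members detected. Pearson's r was 0.78 for Lypd8, 0.72 for Guca2a, 0.66 for Aqp8, 0.65 for Clca6, 0.58 for Car1, 0.49 for Slc26a3 and 0.32 for Car4, and 0.10 for Clca4. The wells share plates, so r is a description.

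Muc2 and Tff3 were detected together in 5 of 24 Epcam-positive wells on FibCtrl replicate 2 (20.8%) and in 2 of 81 on FibΔZeb1 replicate 2 (2.47%), and in none on the other 6 plates. Of these 7 wells, 2 were also absorptive co-detecting. Only 3 of the 7 had many transcripts of both genes. They were a well of FibCtrl replicate 2 with 28691 Muc2 and 37608 Tff3 TPM, a well of FibΔZeb1 replicate 2 with 60159 and 16689, and a further well of that plate with 40753 and 17714 that counted as absorptive. The first had 4, the second 6 and the third 7 of 14 other goblet genes after thinning, such as Fcgbp (a mucus protein), Spink4, Zg16 and Retnlb, whereas the other 4 wells had 0 to 2. The lowest of these, on FibCtrl replicate 2, had Muc2 and Tff3 at 277 each. The immune wells of that plate had 122 and 163 (only 3 and 4 transcripts in 7 wells). The 3 wells with many transcripts are therefore called goblet-like, and no name is given to the other 4.

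Members were also counted in wells that should lack them. Lypd8 in the other Epcam-positive wells was at 21.3, 397, 83.4 and 2.61 TPM on FibCtrl replicates 1 to 4, and in immune wells, which should lack it, at 20.3, 245, 159 and 0. On FibΔZeb1 replicates 1 to 4 it was at 2.46, 754, 2.97 and 186 in the other Epcam-positive wells and at 0, 1218, 0 and 196 in immune wells. The low level in the other Epcam-positive wells thus moved with that in immune wells of the same plate and was not consistently above it. By detection alone, 94.3% of the immune wells of FibΔZeb1 replicate 2 and 84.0% of its Epcam-positive wells showed Lypd8 after thinning. Detecting Lypd8 therefore did not separate these kinds of wells on that plate, and the source of the transcripts was not tested. Lypd8 still counted toward the 3 members needed there. The level of Lypd8 differed, at 21072 TPM in the co-detecting wells of that plate.

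Clca4 and Muc2 behaved differently outside the co-detecting wells. Clca4 in the other Epcam-positive wells was at 87.1, 65.8, 16.9 and 269 on FibCtrl and at 47.7, 334, 114 and 155 on FibΔZeb1 plates, against 11.6, 0, 0 and 14.5 and 3.0, 76.5, 12.8 and 0 in immune wells. It was above the immune wells on all 8 plates. Muc2 in the other Epcam-positive wells of FibCtrl replicate 3 was at 223 against 15.3 in immune wells, and on FibΔZeb1 replicate 3 at 90.8 against 8.53, so some wells without Tff3 held Muc2. On replicate 2 of both genotypes Muc2 in these wells (104 and 73.7) was below the immune level (122 and 109).

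The names were checked with 18 other absorptive colonocyte genes and 14 other goblet genes that had not been used to choose wells. These lists were chosen with earlier results of these data known, so the check is not independent of the data. An absorptive co-detecting well showed a median of 7 of the 18 after thinning, against 1 in other Epcam-positive wells and 0 in immune wells. At least 3 of the 18 were seen in 43 of the 44 wells (97.7%), in 16 of 463 other Epcam-positive wells (3.46%) and in 2 of 342 immune wells (0.585%). The exception was a well of FibCtrl replicate 2 with 2377 transcripts and none of the 18, which is kept in the counts. A further well, the goblet-like one of FibΔZeb1 replicate 2, had 3 of the 18 at 3644 TPM and the other goblet genes at 52581 TPM, so its markers go against an absorptive name, and it is also kept in the counts. With these exceptions the group is called colonocyte-like. The wells were grouped by these data, so differences between the groups are given without a test.

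Of these absorptive genes, 16 had at least 50 transcripts over the Epcam-positive wells. That sum includes the colonocyte-like wells, so a gene could pass the minimum through the wells where it is high. The same holds for the other lists and for all genes below, so counts of higher genes are a description. In pooled TPM with 10 added, 15 of the 16 were over 2-fold higher in the colonocyte-like wells than in the other Epcam-positive wells (neither absorptive nor goblet co-detecting), and their median log2 difference was 4.08. Among all 12195 genes with at least 50 transcripts the median was -0.49, and 9.33% were over 2-fold higher and 26.8% over 2-fold lower. Cyp2c55, a cytochrome P450 of the colon, was at 1709 against 2.08 TPM, and Krt20, the keratin of the mature surface, at 1787 against 8.38. At the other end were Car2 at 539 against 387, which was lower in the colonocyte-like wells on 3 of 4 plates, and Scnn1a at 73.8 against 20.0, which was lower on 1. On the 4 plates with at least 3 wells of each kind, 13 of the 16 were higher on every plate. The colonocyte-like wells were also shallower, with medians of 4862 to 7563 transcripts on these 4 plates against 19964.5 to 39617 in the other wells, and the part of depth in these differences was not tested.

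**Figure D4:**
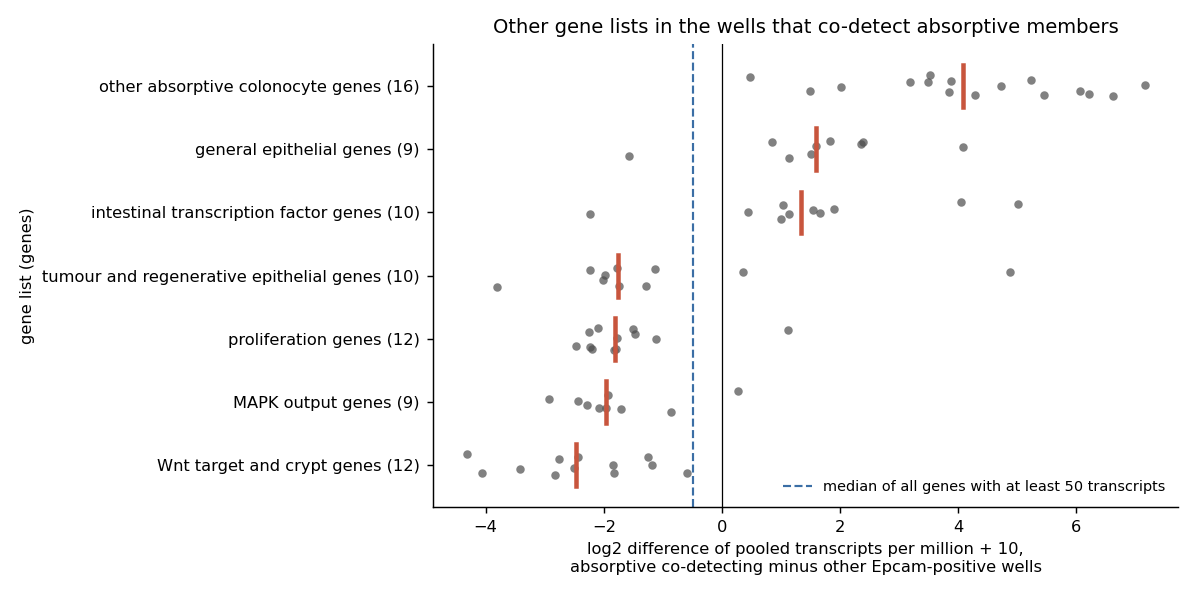
Difference between colonocyte-like and other Epcam-positive wells, on the log2 scale of pooled TPM plus 10 (x axis), for genes of 7 lists (y axis, number of genes in parentheses). Each point is 1 gene, the red bar is the list's median and the dashed line the median of all genes with at least 50 transcripts (-0.49). Absorptive genes lie far to the right (median 4.08) and Wnt target genes to the left (median -2.47).

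The colonocyte-like wells differed from the other Epcam-positive wells in genes of growth pathways. These other wells are what remained after the choice and were not shown to be tumor cells. Apc loss is known to leave Wnt target genes on, but whether a well carried the Apc mutation was not tested. Of 12 Wnt target and crypt genes, 11 were over 2-fold lower in the colonocyte-like wells (median -2.47), with 11 lower on all 4 plates compared. Axin2, a feedback gene of the pathway, was at 0, 0, 2.91 and 39.1 TPM in the colonocyte-like wells of FibCtrl replicates 1 and 2 and FibΔZeb1 replicates 2 and 4, and at 339, 250.4, 152 and 329.7 in the other wells. The colonocyte-like wells of FibCtrl replicates 1 and 2 and FibΔZeb1 replicate 4 held only 38279, 41910 and 25561 transcripts. A gene of low level could therefore count as lower on these plates through 0 transcripts, here and in the lists below. Wif1 was at 8.20 against 295 in the pooled wells. Prox1 (6.15 against 14.4, but higher on 2 of 4 plates) and Ascl2 (0 against 12.7) differed least. Of the MAPK output genes, which growth factor signals raise, 7 of 9 were over 2-fold lower (median -1.97). Etv5 was at 14.3 against 176 and Dusp6 at 28.7 against 199.9, whereas Ereg was at 8.20 against 23.1 and Areg at 111 against 90.1 (higher on 2 of 4 plates).

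Proliferation genes were lower, 11 of 12 by over 2-fold (median -1.81), with Mki67 at 10.2 against 103 and Mcm3 at 0 against 37.6. Pcna was at 117 against 266, and Tyms was the 1 gene on the other side at 82.0 against 32.3.

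Among intestinal transcription factor genes, 8 of 10 were over 2-fold higher and 1 was lower (median 1.34). Hnf4a, which directs enterocyte genes, was at 570 against 7.92 and higher on all 4 plates, and Cdx1 was at 197 against 2.53. Klf5 was at 650 against 477 in the pooled wells but lower in the colonocyte-like wells on 3 of 4 plates. Sox9, a crypt and tumor factor, was at 102 against 522 and lower on all 4 plates. Of the tumor and regenerative epithelial genes, 8 of 10 were over 2-fold lower (median -1.76), such as Anxa3 at 26.6 against 162. Sprr1a went the other way, at 1709 against 48.5. Ly6a was at 1414 against 1098 in the pooled wells but lower in the colonocyte-like wells on each of the 4 plates (1511 against 1840 on FibΔZeb1 replicate 2).

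Of the general epithelial genes, 7 of 9 were over 2-fold higher (median 1.60), such as Lgals4 at 2854 against 159 and Cldn7 at 1526 against 285. Cdh1 was at 654 against 358, and Krt18 was lower at 264 against 812. In the pooled wells all 6 fibroblast markers were over 2-fold lower (median -2.77), but 1 of the 6 was lower on all 4 plates, and 0 of the colonocyte-like wells against 40 of all Epcam-positive wells took 1% or more of their transcripts from Col1a1, Col1a2 and Col3a1. Of the 8 immune markers, 0 were over 2-fold higher and 3 lower (median 0.02), and 3 of the 44 wells had 2 or more Ptprc transcripts. Of 13 other goblet genes, 7 were over 2-fold higher in the pool and 2 were higher on all 4 plates. The goblet-like well of FibΔZeb1 replicate 2 had these genes at 52581 TPM, against a median of 188 TPM in the 44 wells. The 2 enteroendocrine and tuft genes counted were lower in the pool but not on all 4 plates, and the endothelial marker counted was lower on all 4.

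By the rule of highest correlation with the number of absorptive members detected, over 6464 genes seen in at least 5% of the thinned wells, the 10 most similar genes were Phgr1 (r = 0.83), Prss30 (0.79), Muc13 (0.79), 1810065E05Rik (0.78), Cdhr2 (0.77), 2610528A11Rik (0.76), Cyp2c55 (0.72), Cyp2d34 (0.72), Krt20 (0.72) and Cdhr5 (0.72). Muc13 is a membrane mucin, and Cdhr2 and Cdhr5 are the cadherins that join microvilli of the brush border. For the summed level of Muc2 and Tff3 the leading genes reached lower values, from Lrrc26 (r = 0.27), AW112010 (0.25), Bace2 (0.24), Ccl9 (0.24) and Prr24 (0.21) to B4galnt2 (0.21), Camk2n1 (0.20), Cat (0.20), Mia3 (0.20) and Pigr (0.19). All r are over 512 wells that share plates and depth, and a gene could reach the 5% minimum through the colonocyte-like wells alone.

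The third question was whether the colonocyte-like wells carried the sex-linked transcripts of the recipient. Xist, the X inactivation RNA, is made by female cells and Y-linked genes by male cells, and immune cells come from the recipient. Immune wells had Xist at 463 TPM and no Y-linked transcript on FibCtrl replicate 1, and Xist at 398 and no Y-linked transcript on FibΔZeb1 replicate 4. On FibCtrl replicate 3 they had 0 Xist and Y-linked genes at 388 TPM, and on FibΔZeb1 replicate 2 they had 5.46 and 448. FibCtrl replicate 2 had 7 immune wells with 81.6 and 408.

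On FibΔZeb1 replicate 2 the 29 colonocyte-like wells had Xist at 11.6 and Y-linked genes at 183 TPM, whereas the 51 other Epcam-positive wells had Xist at 378 and Y-linked genes at 46.1. A Y-linked transcript was found in 22 of the 29 wells and Xist in 4. On FibΔZeb1 replicate 4, Xist was at 469 in the 4 colonocyte-like wells and was seen in each of them, against 72.0 in the 60 other wells. On FibCtrl replicate 3 the 1 colonocyte-like well had 0 Xist and Y-linked genes at 360, against 6.27 and 47.0 in the 49 other wells. On FibCtrl replicate 2 the 3 wells had 0 Xist and Y-linked genes at 71.6 (3 transcripts of 1 well), against 531 and 14.4 in the 17 other wells.

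On these 4 plates the colonocyte-like wells lay nearer to the immune wells than the other Epcam-positive wells did in Xist. On FibCtrl replicate 3 this was 0 in 1 well against 10 transcripts in 3 of the 49 other wells, too few to separate the kinds. In the Y-linked genes the colonocyte-like wells also lay nearer on the 3 plates where such transcripts were found. FibCtrl replicate 1 could not separate the kinds, since Xist was at 705 in its 7 colonocyte-like wells and at 384 in the 82 others and no Y-linked transcript was found. Over all 8 plates, Xist in the other Epcam-positive wells was at 327 to 531 on replicates 1 and 2 (flow cell 1). On replicates 3 and 4 (flow cell 2) it was at 6.27 to 82.1. Immune wells of FibCtrl replicate 4 and FibΔZeb1 replicate 3 had 449 and 341. The wells used for comparison thus differed by flow cell, and the cause was not tested. The numbers of wells are small on all plates but FibΔZeb1 replicate 2, and the values are given without a test.

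**Figure D5:**
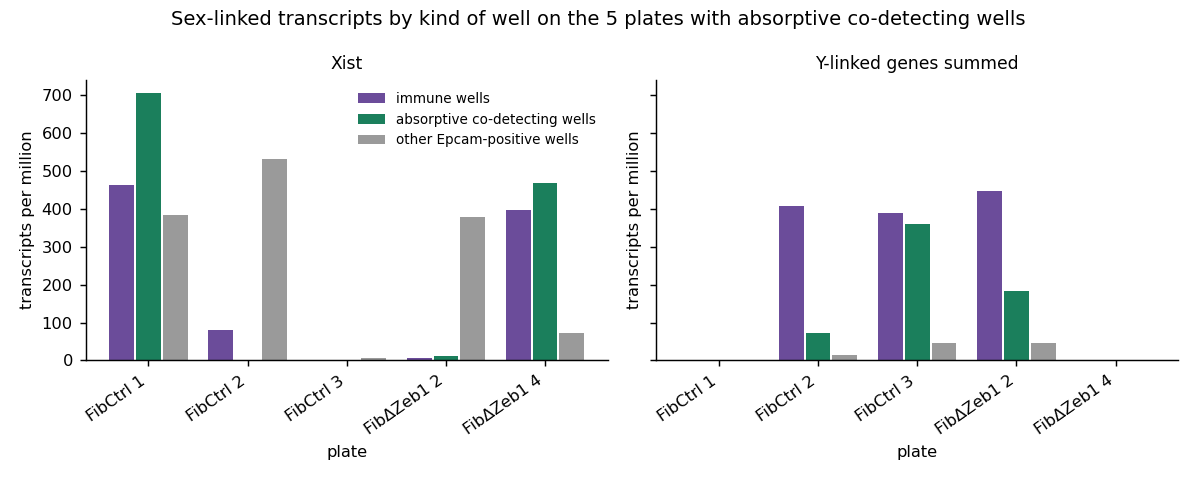
Xist (left) and Y-linked genes summed (right) in TPM (y axis) for immune wells, absorptive co-detecting wells and other Epcam-positive wells on the 5 plates that have absorptive co-detecting wells (x axis). On FibΔZeb1 2 the co-detecting wells have Xist at 11.6 and the other Epcam-positive wells at 378, and bars at 0 mean that no transcript was counted.

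The last question was whether the members differed between FibCtrl and FibΔZeb1 tumors. None did by the tests used. In the edgeR quasi-likelihood fit over the plate sums of Epcam-positive wells, 0 of 10992 genes had an adjusted p under 0.05 (0%), with 190 at an unadjusted p under 0.05, and DESeq2 called 1 gene, which is no member. Of the 10 members, 9 passed the expression filter and 0 of these 9 were called. Tff3 was not tested. The TPM of no member separated the genotypes without overlap, and 1.37% of all tested genes did so.

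Fold changes were smaller than their standard errors for every tested member except Car4, on the log2 scale and as FibΔZeb1 minus FibCtrl. Each SE was derived from the fold change and the F statistic of the same test, so it is no separate measure of spread. Lypd8 differed by 0.63 (SE 1.98, edgeR adjusted p = 0.9999), with 862 ± 1017 TPM in FibCtrl and 1366 ± 2135 in FibΔZeb1 (SD, n = 4 each). Guca2a differed by 0.46 (SE 1.89), Slc26a3 by 0.91 (SE 1.76), Clca6 by 0.41 (SE 1.74) and Clca4 by 0.53 (SE 0.65). Aqp8 differed by -1.65 (SE 1.73), Car4 by -1.39 (SE 1.17), Car1 by -0.21 (SE 1.46) and Muc2 by -0.10 (SE 1.66). The edgeR adjusted p was 0.9999 for each of the 9, and the SD of each member was near or above its mean in FibCtrl, as the plate levels above show. The median over the 8 absorptive members was 0.44 against 0.00 over all genes tested.

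Without FibΔZeb1 replicate 2, Lypd8, Guca2a, Slc26a3, Clca6 and Clca4 turned to -1.48, -3.23, -1.83, -2.02 and -0.16. All 9 tested members were then lower in FibΔZeb1 and none was called. The median over all 11253 genes tested in this setting was -0.0092, and how many of them were lower was not counted. That plate was the highest for 7 members, and most members share wells, so the 9 are not independent. Without FibCtrl replicate 2, Aqp8, Car1 and Muc2 turned to 0.12, 0.55 and 1.29. The 14 tested genes of the other absorptive list had a median of 0.56 (11 higher, 3 lower, 0 called), the 6 other goblet genes -0.23, the 12 Wnt target genes -0.05, the 12 proliferation genes 0.40, the 8 intestinal transcription factor genes -0.02, the 10 tumor and regenerative genes -0.06, the 9 MAPK output genes -0.16 and the 9 general epithelial genes 0.03. None of these genes was called. Fibroblast markers were lower in FibΔZeb1 Epcam-positive wells for 6 of 6 (median -0.69, 0 called), and the 6 immune markers had a median of -0.44 (0 called).

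The shares of co-detecting wells were compared with an exact permutation test over plates (two-sided, 70 arrangements, smallest possible p = 0.0286). Absorptive co-detecting wells made up 5.59% ± 5.69 of Epcam-positive wells in FibCtrl and 10.5% ± 17.1 in FibΔZeb1 (SD, n = 4 each), a difference of 4.92 percentage points (exact permutation p = 0.886). Taken by flow cell, with 2 plates of each genotype on either, it was 7.72 on flow cell 1 and 2.13 on flow cell 2. Without FibΔZeb1 replicate 2 it turned to -3.51 (exact permutation p = 0.457). Wells with Muc2 and Tff3 made up 5.21% ± 10.4 and 0.617% ± 1.23, a difference of -4.59 percentage points (exact permutation p = 1), which was -9.18 in flow cell 1 and 0 in flow cell 2. Without FibCtrl replicate 2 it was 0.617.

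The summed level of the absorptive members, as log2(TPM + 1), averaged 9.88 ± 1.77 in FibCtrl and 9.02 ± 3.12 in FibΔZeb1 (SD, n = 4 each), which differ by -0.86 (exact permutation p = 0.629). It came to -0.99 on flow cell 1, to -0.73 on flow cell 2, and to 0.17 without FibΔZeb1 replicate 1. The summed level of Muc2 and Tff3 averaged 5.93 ± 3.78 in FibCtrl and 5.38 ± 3.69 in FibΔZeb1 (SD, n = 4 each), which differ by -0.55 (exact permutation p = 0.8), and by -0.73 and -0.37 on the flow cells. Leaving out a plate turned this to 0.89 (FibCtrl replicate 2), 0.06 (FibCtrl replicate 3) or 0.91 (FibΔZeb1 replicate 1). In TPM without logs the same sum was 1568 ± 1627 in FibCtrl and 2041 ± 3066 in FibΔZeb1 (SD, n = 4 each), so its direction depended on the scale. Each of these differences was smaller than the spread between plates of 1 genotype.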

How the data were processed

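SORT-seq plates of 8 mice (4 per genotype) were analyzed. Each well received 1 sorted cell, and the 3′ ends of transcripts were counted. Per the labels, the processing notes name BWA, Cell Ranger 2.1.1 and GRCm38, and the methods describe alignment to the transcriptome and a table per plate from the sequencing provider. The deposited values are estimated counts of UMIs, corrected for collisions in the pipeline the authors used and not scaled to depth. They were rounded to whole numbers here. Totals exclude spike-ins and mitochondrial genes.

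The members and gene lists were chosen with earlier results of these data known. Kinds of wells were set from transcripts, since a map from wells to sort gates was not analyzed here. An Epcam-positive well had at least 2000 transcripts and 2 of Epcam, an immune well 2 of Ptprc and none of Epcam, and a fibroblast-type well 10 over Col1a1, Col1a2 and Col3a1, no Epcam and fewer than 2 of Ptprc. Wells carry the same 384 numbers on every plate, so shared barcodes mark no shared cell. No doublet caller was run. Thinning drew 2000 transcripts per well without replacement.

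Plate sums were tested with edgeR 4.0.16 (quasi-likelihood test, TMM, expression filter, genotype as the only term, Benjamini-Hochberg over all genes, threshold 0.05), with DESeq2 1.42.0 as an alternative (R 4.3.3). The tests were also run on simulated data with large changes and without the members' spread between plates. Those runs do not measure the power to find a difference in the members. Single values per plate were compared by exact permutation of plates, with Python 3.11.15 and numpy 2.4.6. By the names of the deposited files, flow cell 1 carried replicates 1 and 2 of both genotypes and flow cell 2 the others.

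The text names all members, the 2 most and 2 least raised genes of a list between kinds of wells, and the 10 genes most correlated with each member group. Other lists are named by counts. Some genes and 1 list are not reported here. Coordinates of gene spans are those of GENCODE M21 on GRCm38. Fold changes of members with 0 on some plates depend on the prior count of the fit.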

Additional observations from a re-analysis of the deposited data

Results flagged for a closer look

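In each genotype, 17 values per plate were examined for a plate far from the other 3 (34 groups), and 12 stood out. Chance alone flags about 1 in 20 groups only where values are normally distributed, which was not tested for these TPM values and shares. For the share of wells with Muc2 and Tff3, the other 3 plates of each genotype held no such well. Any such well on the remaining plate then gives a flag. The 12 that stood out are therefore not compared with that rate. On FibΔZeb1 replicate 2 they were Guca2a at 555 TPM, Slc26a3 at 72.3, Car1 at 400.4, Clca6 at 508, Muc2 at 631, Tff3 at 225, both goblet members summed at 855, and the share of wells with Muc2 and Tff3 at 2.47%. On FibCtrl replicate 2 they were Guca2a at 349, Tff3 at 679 and the share of wells with Muc2 and Tff3 at 20.8%. On FibCtrl replicate 4 it was Clca4 at 269. In each of the 12 the plate was the highest of its genotype, and the members share wells, so the 12 are not independent. FibCtrl replicate 2 had the fewest Epcam-positive transcripts (687776).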

How the results depend on the processing

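edgeR called 0 genes under each alternative run with it (other scaling, no filter, the replicate block, flow cell, other minimums of Epcam or depth, wells with Ptprc, collagen or co-detected members left out, and each plate left out), and DESeq2 called 1 (E030002O03Rik). Wells with collagen left out and Clca4 left out were chosen after seeing the data. No member was called and no permutation test fell under 0.05 under any alternative. Directions were less stable. The absorptive share turned to -1.89 percentage points when wells were not thinned (it then was 79.0% on FibΔZeb1 replicate 2 and 58.3% on FibCtrl replicate 2), and the absorptive level turned to 0.16 without the co-detecting wells. Clca6 turned to -0.50 with the replicate block and -0.070 with flow cell as covariate, Guca2a to -0.94 and Lypd8 to -1.52 with the replicate block, Car1 to 1.98 without the co-detecting wells, and Muc2 to 0.0049 without collagen-rich wells. The causes were not tested.

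With 1 plate left out, the absorptive share ranged from -3.51 to 8.43 percentage points, the share with Muc2 and Tff3 from -6.33 to 0.617, the absorptive level from -2.08 to 0.17 and the goblet level from -2.01 to 0.91. Log2 fold changes ranged from -2.51 to 0.12 for Aqp8, -2.59 to 0.55 for Car1, -0.16 to 1.28 for Clca4, -2.02 to 1.34 for Clca6, -3.23 to 2.44 for Guca2a, -1.48 to 1.72 for Lypd8, -2.50 to 1.29 for Muc2 and -1.83 to 2.40 for Slc26a3. Car4 ranged from -1.85 to -0.07. Same-numbered plates did not deviate together on all numbers (correlations 0.56, 0.17, 0.04 and 0.02 for replicates 1 to 4), so the block pairs plates by number only. Permuting within replicate numbers (replicate block, 16 arrangements, smallest p 0.125) gave exact p of 0.75 and 1 for the shares and 0.625 and 0.25 for the levels of absorptive and goblet members, and the edgeR block left 343 genes at an unadjusted p under 0.05. Tff3 did not pass the filter, and DESeq2 gave no adjusted p for Guca2a. By the limit of 3 counts, 0 absorptive wells allow shares of up to 3.66% to 5.45% (upper 95% Wilson bounds 4.48% to 6.53%).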
